A study of Homo sapiens with 4 samples.

Results

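The E2F transcription factors and their DP partners are the proteins through which the retinoblastoma pathway controls the genes of DNA replication. The genes examined were the 8 E2F genes and the 2 TFDP genes, E2F1 to E2F8, TFDP1 and TFDP2, taken from a count table by their gene names. All 10 were among the 60606 genes of the table, and all 10 were among the 19349 genes that passed the expression filter and were tested. RNA was from DaroR cells, a subline of the prostate cancer line LNCaP that had been made resistant by long culture under increasing darolutamide, an antiandrogen. The cells of every library thus shared the LNCaP background and the darolutamide resistance. The study describes DaroR cells as kept in medium with 10 μM darolutamide. The cells were transfected either with control siRNA (siControl, n = 2) or with a pool of siRNAs against the long noncoding RNA LOC730101 (siLOC730101, n = 2). The resistant cells are a single line, parental LNCaP cells were not analysed here, and the labels do not say whether the 2 libraries of a group came from separate cultures, so that the p-values measure the spread between these libraries, which may be technical.

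E2F proteins bind DNA at the promoters of genes needed for entry into and passage through S phase. E2F1, E2F2 and E2F3 are known as activators, which are held inactive by the retinoblastoma protein RB1 until cyclin-dependent kinases phosphorylate it. E2F4 and E2F5 act mostly as repressors together with the related pocket proteins RBL1 and RBL2, and E2F6 represses without a pocket protein, in polycomb complexes. E2F1 to E2F6 bind DNA as dimers with a DP protein, encoded by TFDP1 or TFDP2. The atypical members E2F7 and E2F8 bind without DP and repress E2F target genes, among them E2F1, late in the cell cycle. The comparison addressed whether the transcripts of these factors differ after loss of LOC730101, since the study links LOC730101 to the expression of E2F target genes. By RT-qPCR after this knockdown, the study named CDK6, RBL1 and RPA1, but not E2F1, among the genes that changed significantly. RBL1 and RPA1 had also been named as significantly lower by its RNA sequencing. Its gene set enrichment analysis of the same data named E2F targets as the genes mainly affected. Its own RNA sequencing analysis called far more genes at an adjusted p under 0.05 than the fits given below.

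The promoters of the activators are shown first, because E2F genes are themselves known targets of E2F proteins. Of the 10 genes, 8 were matched by symbol to the RefSeq promoter table (GRCh38.p14), which holds the 300 bases from 250 before to 50 after each start site. E2F5 and E2F8 were not matched. A match to the E2F element was defined as any of 4 words, TTTCCCGC, TTTCGCGC, TTTGCCGC or TTTGGCGC, on either strand, and is printed in capitals. Such a match was found in 4 of the 8 promoters, those of E2F1, E2F2, E2F3 and TFDP1, and in 3.31% of the 35116 promoters of the same length in the table. The sequences are given 5′ to 3′ on the strand of the gene, as E2F1 (chr20:33686336-33686635, minus strand), E2F2 (chr1:23531184-23531483, minus strand) and E2F3 (chr6:20401629-20401928, plus strand).
E2F1: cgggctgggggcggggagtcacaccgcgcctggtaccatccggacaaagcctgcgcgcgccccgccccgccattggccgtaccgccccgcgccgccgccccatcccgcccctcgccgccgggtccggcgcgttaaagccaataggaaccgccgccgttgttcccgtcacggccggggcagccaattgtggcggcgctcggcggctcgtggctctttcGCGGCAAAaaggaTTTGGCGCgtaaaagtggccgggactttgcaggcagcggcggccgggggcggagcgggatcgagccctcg
E2F2: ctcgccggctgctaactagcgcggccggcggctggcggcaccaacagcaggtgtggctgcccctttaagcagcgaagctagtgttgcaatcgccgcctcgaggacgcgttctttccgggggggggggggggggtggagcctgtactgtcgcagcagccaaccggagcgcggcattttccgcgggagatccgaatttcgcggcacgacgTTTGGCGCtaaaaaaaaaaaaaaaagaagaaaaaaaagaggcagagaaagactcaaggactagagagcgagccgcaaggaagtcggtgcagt
E2F3: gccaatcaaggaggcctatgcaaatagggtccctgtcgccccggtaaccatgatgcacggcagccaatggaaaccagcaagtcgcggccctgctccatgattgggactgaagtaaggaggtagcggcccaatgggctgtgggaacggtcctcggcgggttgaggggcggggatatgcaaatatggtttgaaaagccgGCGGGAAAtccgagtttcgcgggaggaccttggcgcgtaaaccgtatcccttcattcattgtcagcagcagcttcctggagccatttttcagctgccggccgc

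The E2F1 promoter held 2 matches, from -33 to -26 and from -20 to -13 relative to the start site, where -1 is the base before the first transcribed base. Only 0.145% of all promoters in the table held 2 or more. E2F2 held 1 match from -42 to -35, E2F3 held 1 from -53 to -46, and TFDP1 held 1 from -120 to -113. E2F3 is also transcribed from an internal promoter, which is outside this window. The word CCAAT, a common promoter element, was found on either strand in 4 of the 8 promoters (3 matches in E2F1, 4 in E2F3, 4 in E2F7 and 2 in TFDP2) and in 34.6% of all promoters. The cell cycle element CHR, searched as TTTGAA on either strand, was found in E2F3 alone of the 8, from -65 to -60, and in 15.2% of all promoters. No match overlapped a match to another word.

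The promoters of E2F4 and E2F7 are also shown. Both held 0 matches to the E2F words, and their siControl and siLOC730101 libraries did not overlap, as described below. Such separation is common, since 20.5% of all genes tested were lower and 21.3% higher in both siLOC730101 libraries. It is therefore not read as a trait of E2F4 and E2F7. E2F6 and TFDP2 held 0 matches as well, and the groups of E2F1, with 2 matches, did not overlap either. Only exact words were searched, so 0 matches does not show that a promoter lacks control by E2F. The 2 promoters lie at chr16:67191905-67192204 on the plus strand for E2F4 and at chr12:77065520-77065819 on the minus strand for E2F7.
E2F4: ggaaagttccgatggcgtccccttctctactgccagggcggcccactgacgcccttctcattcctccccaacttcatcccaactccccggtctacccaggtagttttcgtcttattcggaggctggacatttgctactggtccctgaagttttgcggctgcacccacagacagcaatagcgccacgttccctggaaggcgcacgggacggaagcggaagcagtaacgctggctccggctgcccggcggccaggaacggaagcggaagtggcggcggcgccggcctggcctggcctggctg
E2F7: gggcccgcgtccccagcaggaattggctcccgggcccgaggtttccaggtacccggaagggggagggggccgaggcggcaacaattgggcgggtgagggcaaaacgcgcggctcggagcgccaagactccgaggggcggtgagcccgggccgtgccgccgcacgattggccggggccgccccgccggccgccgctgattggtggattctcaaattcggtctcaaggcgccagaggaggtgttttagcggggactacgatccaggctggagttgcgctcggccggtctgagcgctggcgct

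The libraries held 39213498 to 53368158 counts, with the lower totals in siLOC730101, with 13295 to 18753 counts on the 10 genes. The targeted RNA, listed as ENSG00000216775, had 2560 and 2370 counts in siControl and 633 and 680 in siLOC730101. Its log2 fold change was -1.56 (SE 0.12, adjusted p = 4.34e-06, edgeR quasi-likelihood test), a change of -66.0%. The study states a larger reduction of LOC730101 by this siRNA in DaroR cells. The 9 luminal prostate markers were all expressed, among them KLK3, which encodes PSA, at 1487 to 1916 normalized counts per 1000000 counts of the library (CPM). Their summed level was 6765 to 7489 CPM in siControl and 7341 to 7649 CPM in siLOC730101. The basal markers KRT5 and TP63 had 0 counts in every library, as did 4 of 5 neuroendocrine markers, PTPRC, CDH5, COL1A2 and LUM. The summed level was at most 0.632 CPM for the 4 basal, 2.95 CPM for the 5 neuroendocrine and 0.0974 CPM for the 4 immune markers, while the 5 fibroblast markers reached 18.0 CPM in siControl and 15.1 CPM in siLOC730101, carried by COL1A1 and COL3A1, and the 3 endothelial markers 9.44 and 7.01 CPM, carried by VWF. The part of these markers in the results was not tested.

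DaroR cells expressed each of the 10 genes, over a wide range. Levels between genes were compared as normalized CPM per kilobase of annotated exon, averaged over the 4 libraries. TFDP1 was highest at 18.9, followed by E2F1 at 18.0 and E2F4 at 16.6, and the ranges of these 3 over the libraries overlapped. E2F6 at 7.62 and E2F3 at 7.06 came next and also overlapped each other. TFDP2 stood alone at 5.61, below the lowest E2F3 library and above the highest E2F5 library. E2F5 at 2.42, E2F8 at 2.08 and E2F7 at 1.93 could not be ordered beyond their spread. E2F2 was lowest at 0.384, and its highest library (0.419) was below the lowest library of E2F7 (1.52). TFDP1, E2F1 and E2F4 thus lay at percentiles 87.4, 86.7 and 85.4 of the genes tested, and E2F2 at percentile 21.4. The length used is that of all annotated exons of a gene merged, so a gene with long exons that these cells do not use reads too low.

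**Figure D1:**
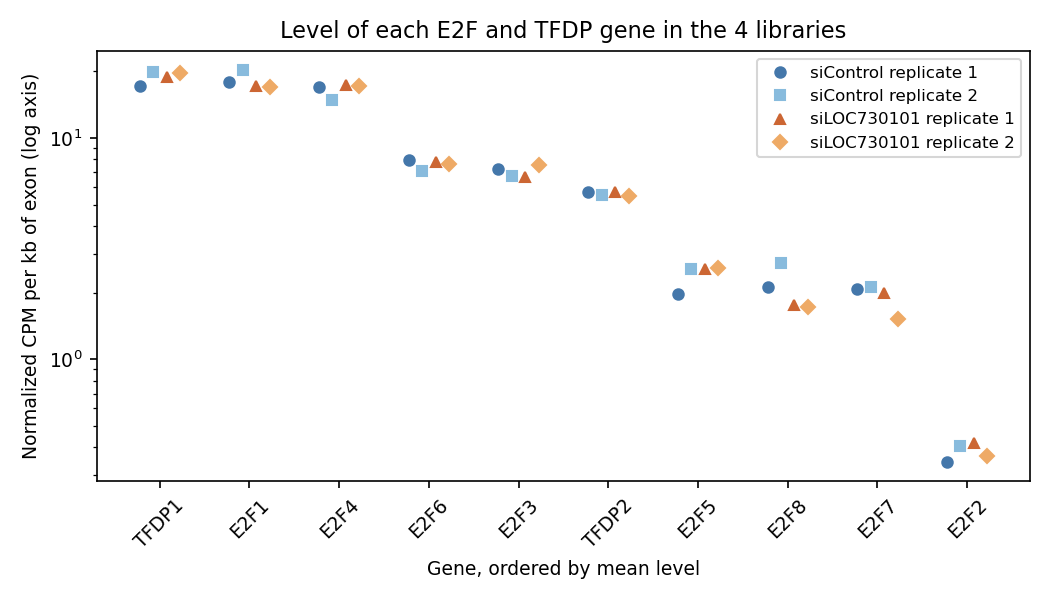
Level of the 10 genes in normalized CPM per kilobase of exon (vertical log axis), with a point for each of the 4 libraries and genes ordered by mean level. TFDP1, E2F1 and E2F4 form the upper group at 14.9 to 20.2, and E2F2 lies lowest at 0.345 to 0.419.

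None of the 10 genes passed an adjusted p of 0.05 between siLOC730101 and siControl (0 of 10, edgeR quasi-likelihood test), where 0.284% of all genes tested did. DESeq2 gave 0 of the 9 genes for which it returned an adjusted p. At an unadjusted p under 0.05, 1 of the 10 passed, E2F8, which was lower, against 4.39% of all genes that were lower at this threshold. E2F1, E2F7 and E2F8 were below siControl in both siLOC730101 libraries (3 of 10, against 20.5% of all genes), and E2F4 was above in both (1 of 10, against 21.3%). A log2 fold change below 0 was found for 4 of 10, against 50.4% of all genes, and the median over the 10 was 0.031, where the median over all genes was -0.0021. In RNA from whole cultures, fewer cells in a phase of the cell cycle and less RNA per cell cannot be told apart. Exact permutation of 4 libraries cannot bring the two-sided p of any gene under 0.333, so the p-values given are from the fits across all genes.

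**Figure D2:**
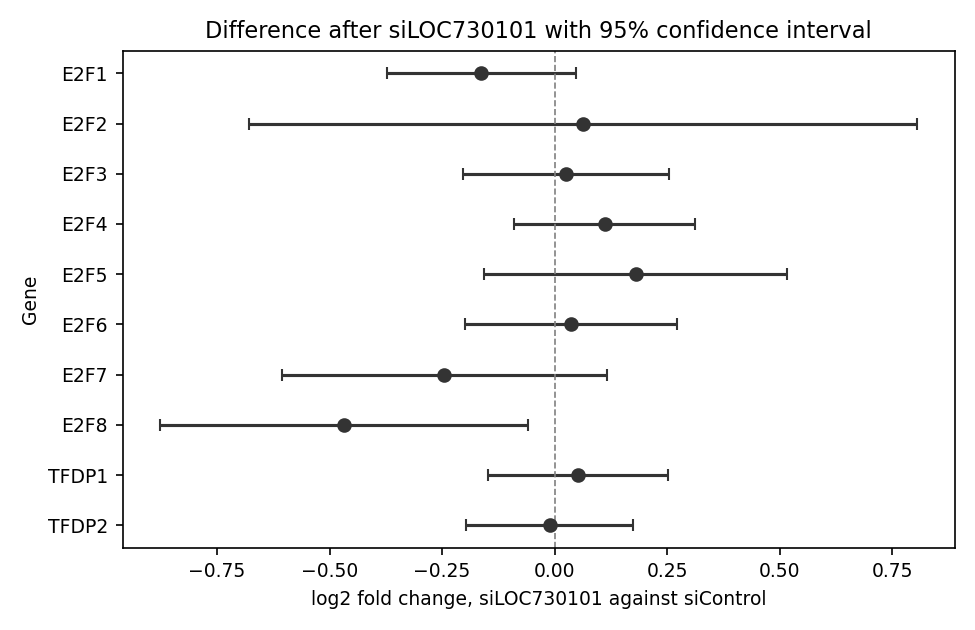
Log2 fold change of each gene in siLOC730101 against siControl (horizontal axis) with its 95% confidence interval from the edgeR fit (n = 2 libraries a group). The interval of E2F8, from -0.88 to -0.060, is the one that does not reach 0 before adjustment, and that of E2F2, from -0.68 to 0.81, is the widest.

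Of the activators, E2F1 is the founding member of the family. E2F1, on chromosome 20 of hg38 from 33675477 to 33686385, had 48.1 and 54.3 normalized CPM in siControl and 46.0 and 45.5 in siLOC730101. The siLOC730101 libraries were both lower, but they lay nearer to siControl replicate 1 than the siControl libraries lay to each other. The log2 fold change was -0.16 (SE 0.099, 95% confidence interval -0.37 to 0.047, adjusted p = 0.597, edgeR), and it became -0.070 on removal of siControl replicate 2 and -0.25 on removal of siControl replicate 1. E2F3, on chromosome 6 from 20401879 to 20493714, had 37.5 and 35.1 CPM in siControl and 34.7 and 39.2 CPM in siLOC730101. Its siLOC730101 libraries lay on either side of both siControl libraries. Its log2 fold change was 0.025 (95% confidence interval -0.20 to 0.25, adjusted p = 0.967, edgeR), and its direction turned without siControl replicate 2, without siLOC730101 replicate 2, with upper-quartile factors and with library size alone.

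E2F2, the third activator, was the member with the fewest reads, on chromosome 1 from 23506438 to 23531233. Its siControl libraries held 102 and 104 counts, and its siLOC730101 libraries 94 and 76. On the CPM scale siControl averaged 2.05 ± 0.237 and siLOC730101 averaged 2.14 ± 0.202 (SD, n = 2 each), and the groups overlapped. With these few counts the interval of its log2 fold change, from -0.68 to 0.81 around 0.064 (adjusted p = 0.977, edgeR), leaves a fold between 0.625 and 1.75, so that a moderate change of E2F2 was not detectable at this depth. Its direction turned without siControl replicate 1 and without siLOC730101 replicate 1.

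The repressors of the pocket protein branch, E2F4 and E2F5, had higher mean values after siLOC730101, with confidence intervals that reached below 0. E2F4, the main partner of RBL1 and RBL2 in resting cells, lies on chromosome 16 from 67192155 to 67198918. E2F4 had 60.9 and 53.5 CPM in siControl and 62.2 and 61.5 CPM in siLOC730101. The siLOC730101 libraries were above both siControl libraries, with siControl replicate 1 nearer to them than to siControl replicate 2. For E2F4 the log2 fold change was 0.11 (SE 0.094, 95% confidence interval -0.090 to 0.31, adjusted p = 0.742, edgeR). Removal of siControl replicate 2 left 0.024, and removal of siControl replicate 1 left 0.21.

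E2F5, a related repressor on chromosome 8 from 85177154 to 85217158, had 11.9 and 15.4 CPM in siControl and 15.3 and 15.6 CPM in siLOC730101. A single library, siControl replicate 1, was low, and the other 3 lay together. The log2 fold change of 0.18 (SE 0.16, 95% confidence interval -0.16 to 0.52, adjusted p = 0.756, edgeR) became 0.0071 once siControl replicate 1 was removed and 0.38 once siControl replicate 2 was. Of the exon bases of E2F5, 18.8% are shared with genes on the other strand, 997 bases with RBIS and 133 with ENSG00000254208. The counting command has no strand option and none to count a read for both genes, so reads there could not be assigned to E2F5 and its level is uncertain. RBIS had 427 and 366 counts in siControl and 367 and 361 in siLOC730101.

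E2F6, the polycomb-bound repressor on chromosome 2 from 11444375 to 11466177, had 32.3 and 28.9 CPM in siControl and 31.6 and 31.1 CPM in siLOC730101. Both siLOC730101 libraries fell between the siControl libraries. With a log2 fold change of 0.036 (95% confidence interval -0.20 to 0.27, adjusted p = 0.951, edgeR), its direction turned without siControl replicate 2 and with library size alone.

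The atypical repressors E2F7 and E2F8 had the lowest log2 fold changes of the 10. E2F8, on chromosome 11 from 19224063 to 19241620, was covered by 473 and 526 counts in siControl libraries and by 300 and 271 in siLOC730101 libraries, or 8.75 and 11.2 CPM against 7.30 and 7.14 CPM. The siLOC730101 libraries lay close together and below both siControl libraries, which differed more from each other. E2F8 averaged 9.99 ± 1.76 CPM in siControl and 7.22 ± 0.116 CPM in siLOC730101 (SD, n = 2 each). The log2 fold change was -0.47 (SE 0.19, 95% confidence interval -0.88 to -0.060), a fold of 0.723, with an unadjusted p of 0.0274 in the edgeR fit and an adjusted p of 0.369. Removal of siControl replicate 2 gave -0.27 and removal of siControl replicate 1 gave -0.64, and its adjusted p lay between 0.206 and 0.889 in the 14 alternative settings, so that E2F8 passed under none of them. Its unadjusted p also missed 0.05 once siControl replicate 2 or siLOC730101 replicate 2 was removed. Its exons share 7 bases with CSRP3-AS1 on the other strand, which had at most 4 counts in a library.

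E2F7, on chromosome 12 from 77021248 to 77065569, was covered by 703 and 622 counts in siControl libraries and by 517 and 364 in siLOC730101 libraries, or 13.0 and 13.3 CPM against 12.6 and 9.59 CPM. The lower mean rested on siLOC730101 replicate 2, since replicate 1 was within 1 CPM of siControl. The log2 fold change of -0.24 (SE 0.17, 95% confidence interval -0.61 to 0.12, adjusted p = 0.660, edgeR) became -0.066 once siLOC730101 replicate 2 was removed and -0.45 once siLOC730101 replicate 1 was.

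The DP partners, which give E2F1 to E2F6 their affinity for DNA, had standard errors of 0.094 and 0.087 on the log2 scale. TFDP1, on chromosome 13 from 113584721 to 113641473, had 64.4 and 74.5 CPM in siControl and 70.4 and 73.6 CPM in siLOC730101. Its siLOC730101 libraries lay within the range of siControl. The log2 fold change was 0.052 (95% confidence interval -0.15 to 0.25, adjusted p = 0.909, edgeR), and its direction turned without siControl replicate 1. TFDP2, on chromosome 3 from 141944428 to 142149544, had 68.1 and 65.9 CPM in siControl and 68.0 and 65.1 CPM in siLOC730101. The groups overlapped, and the log2 fold change of -0.010 (95% confidence interval -0.20 to 0.18, adjusted p = 0.988, edgeR) changed direction without siControl replicate 1 and without siLOC730101 replicate 2. Per kilobase, TFDP1 was 3.01 and 3.59 times as high as TFDP2 in siControl and 3.29 and 3.59 times in siLOC730101, so that the ratio of the DP genes did not separate the groups. By CPM alone, where the long exons of TFDP2 count in full, TFDP1 was 0.946 to 1.13 times as high.

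**Figure D3:**
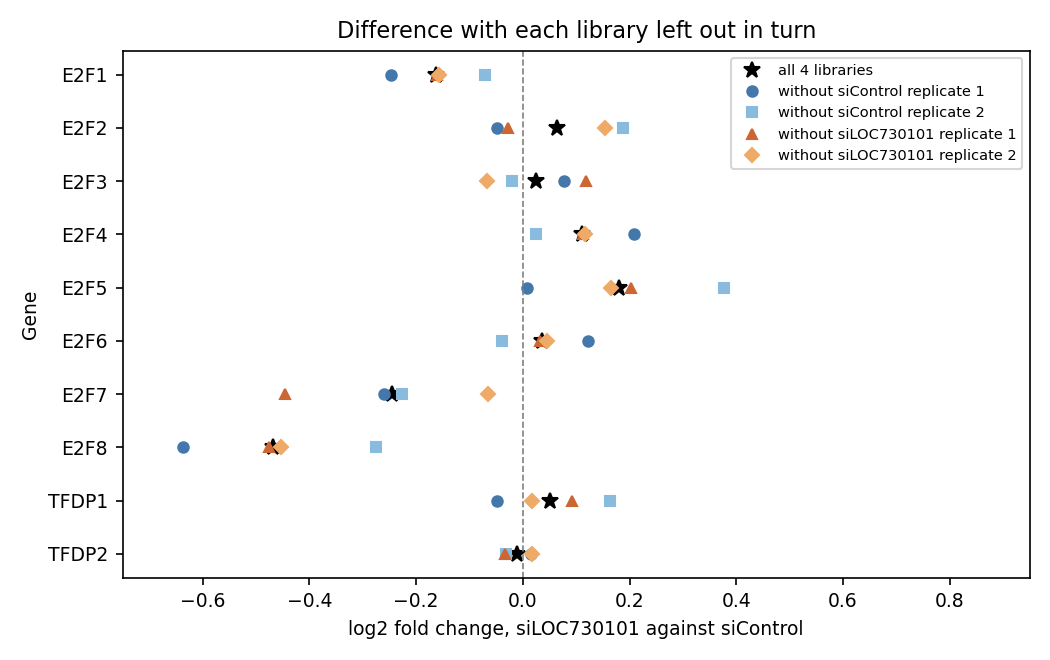
Log2 fold change of each gene in siLOC730101 against siControl (horizontal axis) with all 4 libraries (stars) and with 1 library removed at a time (other symbols). E2F1, E2F7 and E2F8 lie below 0 and E2F4 and E2F5 above 0 in all 5 fits, and the points of the other 5 genes fall on both sides of 0.

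Annotated copies of the members were also read from the table, since their reads could come from the parent genes. Of 11 rows, made up of TFDP3 and 10 pseudogenes of E2F3, E2F4, E2F6 and TFDP1, 7 had 0 counts in all 4 libraries. The highest value was 26 counts, for TFDP1P2 in siControl replicate 1, where TFDP1 had 3482. The exons of the members other than E2F5 and E2F8 shared 0 bases with another gene.

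The make-up of the E2F pool was compared within each library, which removes library scaling. Of the summed CPM per kilobase of the 8 E2F genes, E2F1 took 31.6% and 35.6% in siControl and 30.7% and 30.5% in siLOC730101. E2F4 took 30.0% and 26.2% in siControl and 31.1% and 30.9% in siLOC730101. These were the largest shares of the pool in each library. E2F8 took 3.74% and 4.79% in siControl and 3.18% and 3.12% in siLOC730101, and E2F2 less than 1% throughout. The summed activators E2F1, E2F2 and E2F3 reached 0.820 and 0.931 times the summed repressors E2F4 to E2F8 in siControl and 0.771 and 0.811 times in siLOC730101. The siLOC730101 ratios were below both siControl ratios, and the lower siControl ratio was nearer to them than to its own replicate. The means were 0.876 ± 0.079 (SD, n = 2) and 0.791 ± 0.028 (SD, n = 2), a log2 difference of -0.15, which was -0.052 without siControl replicate 2.

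**Figure D4:**
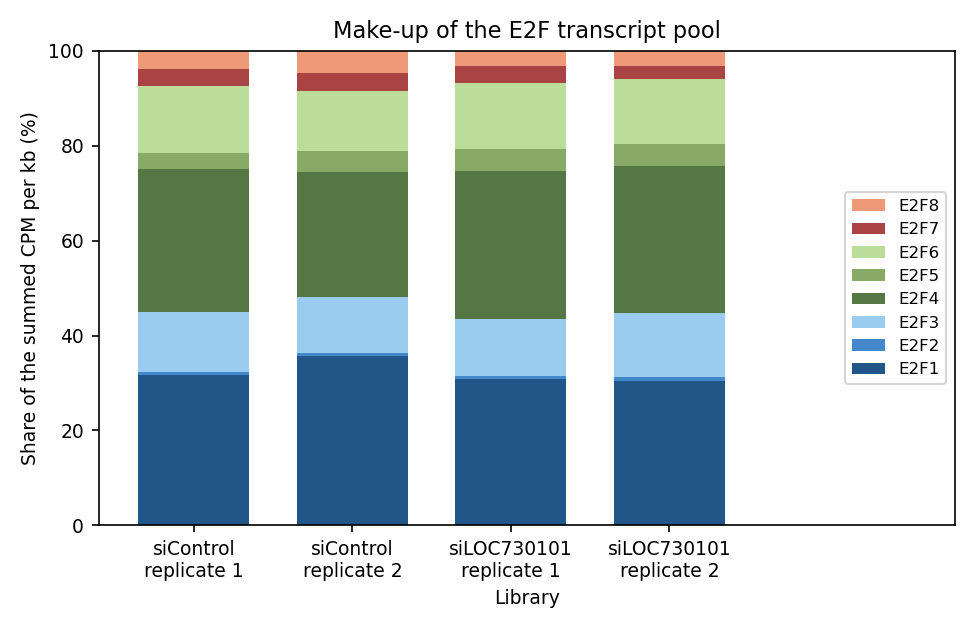
Share of each E2F gene in the summed CPM per kilobase of the 8 E2F genes (vertical axis, percent), with a stacked bar for each library. E2F1 and E2F4 are the largest shares in every library, at 30.5% to 35.6% and 26.2% to 31.1%.

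The proteins that control E2F activity and the genes it targets were described next, from 8 lists with 95 distinct genes, of which 92 were tested. None passed an adjusted p of 0.05 in edgeR (0 of 92). At an unadjusted p under 0.05 in edgeR, 14 of the 92 were lower and 1 was higher, against 4.39% and 6.43% of all genes. DESeq2 called 5, which were HELLS, RFC3, RPA1, RRM1 and RRM2, against 2.87% of the 10721 genes for which it returned an adjusted p. All of the 14 belonged to the list of S phase targets.

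Among the regulators, the 3 pocket proteins had log2 fold changes below 0, with a median of -0.12 that became -0.063 on removal of siLOC730101 replicate 2 and -0.18 on removal of siControl replicate 1. RB1, which binds the activators, had 97.4 and 100.4 CPM in siControl and 90.7 and 85.9 CPM in siLOC730101 (log2 fold change -0.16, SE 0.082, adjusted p = 0.505, edgeR). RBL1 and RBL2 overlapped between the groups, with log2 fold changes of -0.12 and -0.083. For RBL1, which the study named as significantly lower, the adjusted p was 0.785 (edgeR). The MuvB core and B-Myb, which with E2F4 and the pocket proteins form the DREAM complex and later its activating counterpart, had 6 of 6 log2 fold changes below 0 and a median of -0.12, which became -0.053 on removal of siLOC730101 replicate 1 and -0.18 on removal of siLOC730101 replicate 2. The 3 with the smallest p in this list were MYBL2 at -0.13, LIN9 at -0.20 and LIN54 at -0.15. Of 7 G1 cyclins and kinases tested, 3 were below 0 with a median of 0.021. CCND3, a D-type cyclin that activates CDK4 and CDK6, had the smallest p, with 54.8 and 50.9 CPM in siControl and 59.3 and 68.4 CPM in siLOC730101 (log2 fold change 0.27, SE 0.098, adjusted p = 0.287, edgeR). CCNE2 at 0.23 and CCND1 at -0.063 followed and overlapped between the groups. CDK6, which the study named by RT-qPCR, was at -0.066 (adjusted p = 0.884, edgeR).

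Of 6 CDK inhibitors, 2 were below 0 with a median of 0.094, and the median was -0.13 without siLOC730101 replicate 2. CDKN1B, which encodes p27, had 81.0 and 84.6 CPM in siControl and 93.0 and 90.6 CPM in siLOC730101 (log2 fold change 0.15, SE 0.082, adjusted p = 0.549, edgeR). CDKN1C at 0.43 and CDKN2D at 0.22 had larger standard errors of 0.32 and 0.20. Of the 4 genes for E2F turnover, 2 were below 0 with a median of -0.027. CCNF, whose product is a ubiquitin ligase subunit that acts on E2F proteins, was at -0.17, FZR1 at 0.072 and CCNA2 at -0.055. Of 12 polycomb partners of E2F6, 7 were below 0 with a median of -0.026. RYBP at 0.33, MAX at -0.12 and MGA at -0.097 had the smallest p, and the RYBP value overlapped between the groups, with 384 counts in siControl replicate 1 against 708 in replicate 2. The medians of the G1 cyclin, turnover and polycomb partner lists also changed sign with 1 library removed, and ranged from -0.026 to 0.10, from -0.10 to 0.050 and from -0.069 to 0.036.

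Most of the S phase targets of E2F, the genes for DNA replication and nucleotide supply, had log2 fold changes below 0. Of 54 genes, 44 (81.5%) had a log2 fold change below 0, against the 50.4% of all genes given above, and 29 were lower in both siLOC730101 libraries than in both siControl libraries, with 3 higher in both, where 20.5% and 21.3% of all genes were. The median was -0.13, and with any 1 library removed it was -0.16 to -0.090. RPA1, a subunit of the single-strand binding protein, had 200.6 and 200.7 CPM in siControl and 147.5 and 161.9 CPM in siLOC730101 (log2 fold change -0.38, SE 0.078, adjusted p = 0.0594, edgeR). HELLS, a chromatin remodeller, had 35.1 and 41.1 CPM in siControl and 27.9 and 24.8 CPM in siLOC730101 (log2 fold change -0.53, SE 0.12, adjusted p = 0.0778, edgeR). RRM2, a subunit of ribonucleotide reductase, had 135.8 and 149.0 CPM in siControl and 108.7 and 115.9 CPM in siLOC730101 (log2 fold change -0.34, SE 0.082, adjusted p = 0.104, edgeR). In these 3 genes the groups lay apart by more than the libraries of a group did. They were named for the smallest p in the list, which selects for such separation. The list was chosen with earlier results of these data known and is not independent evidence of the direction.

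The genes listed as targets of E2F6, most of them germ line genes, were mostly near the limit of detection. Whether E2F6 silences them in these cells was not tested. Of 7, 5 were tested, SLC25A31 had 0 counts, and SMC1B had 2 and 7 counts in siControl and 0 in siLOC730101. TUBB3 had 61 and 67 counts in siControl and 42 and 20 in siLOC730101 (log2 fold change -0.72, SE 0.53, adjusted p = 0.693, edgeR), MAEL had 18 and 18 against 6 and 6 (adjusted p = 0.738, edgeR), and STAG3 had 194 and 202 against 133 and 120 (log2 fold change -0.30, SE 0.27, adjusted p = 0.759, edgeR). All 5 were below 0, with intervals that all reached above 0.

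The genes whose pattern was most like that of E2F1 were sought among the 92 pathway genes tested and the other E2F and TFDP genes. Likeness was the root mean square difference between log2 CPM values after each gene was centred on its mean over the 4 libraries. Among the 5 closest were CDK1 (0.032), PRIM1 (0.032), CHAF1B (0.038) and MCM6 (0.040). All 4 of them are from the list of S phase targets, which holds 54 of the 92 pathway genes searched. Around its own mean, E2F1 was at -0.0070 in siControl replicate 1, 0.17 in siControl replicate 2, -0.072 in siLOC730101 replicate 1 and -0.087 in siLOC730101 replicate 2. These 4 genes were likewise highest in siControl replicate 2 and near their mean in siControl replicate 1. E2F8 was also highest in siControl replicate 2, at 0.39, and lower in siLOC730101, at -0.20 and -0.23. With 4 libraries this is a description of shape, and genes far down the ranking can have the same order of libraries.

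**Figure D5:**
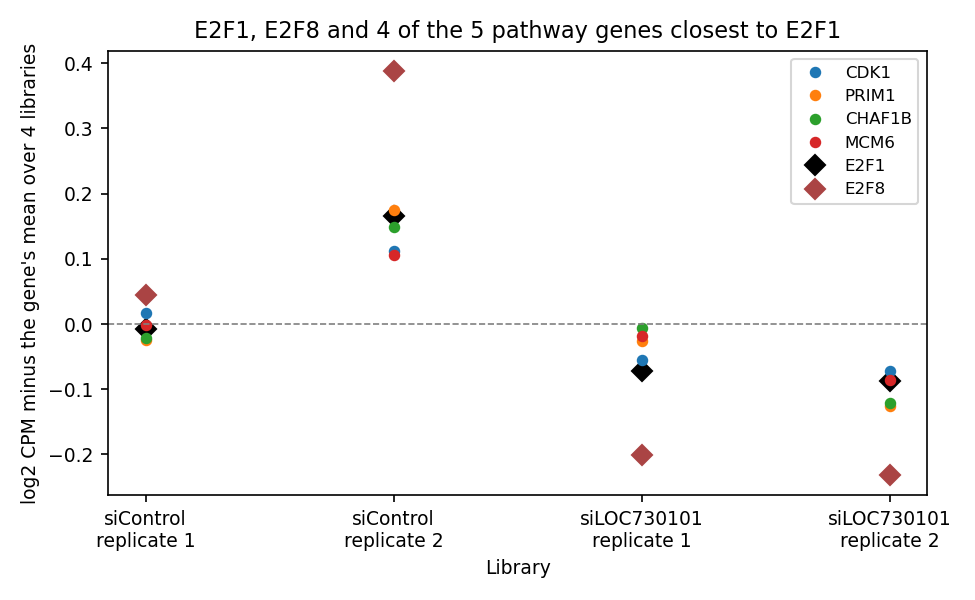
Log2 CPM of E2F1, E2F8 and 4 of the 5 pathway genes closest to E2F1, each minus its mean over the 4 libraries (vertical axis), by library. All 6 genes are highest in siControl replicate 2, and E2F8 spans the widest range, from -0.23 to 0.39.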

How the data were processed

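RNA was sequenced from 4 libraries of DaroR cells. The deposited table holds a raw count for each gene and library, which the authors made from trimmed and aligned reads with featureCounts 2.0.1, over exons grouped by gene name, without normalization. The file header names hg38 with gencode version 41, and the exon lengths used per kilobase are those of the same deposited table (other unit, bases). The methods of the paper name STAR with hg19, whereas the submitters' processing notes name BWA with hg38, so the aligner is not settled here. No paired-end or strand option is in the command. Low values (1 to 20 counts) were even in 66.0% to 70.1% of cases, so mates may have been counted apart.

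Counts were tested in R 4.3.3 with edgeR 4.0.16 (filterByExpr, TMM, estimateDisp, glmQLFit at its defaults, group as the only term) over 19349 genes with Benjamini-Hochberg adjustment. Standard errors were taken as the absolute log2 fold change divided by the square root of the quasi-likelihood F statistic. Confidence intervals use these and the degrees of freedom of the fit, so they restate the unadjusted p. CPM values use TMM library sizes. DESeq2 1.42.0 was an alternative. Likeness used a prior of 0.5 CPM. The chi-square per degree of freedom between libraries was 10.6 in siControl and 13.0 in siLOC730101, so neither pair is a repeated library. Motifs were searched with Python 3.11.15. The scripts were tested on simulated data.

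The genes and lists were chosen with earlier results of these data known. The genes named are the members, LOC730101, the 3 genes with the smallest p in each list, any list gene with an adjusted p under 0.05, the 5 genes most like E2F1, and copies or overlapping genes of members. Cell type markers, the list genes that DESeq2 called and CDK6, which the study named, are given beside them. Of the genes this rule names, 1 is not reported here.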

Additional observations from a re-analysis of the deposited data

How the results depend on the processing

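The count of 0 members called and the fall of LOC730101 held under every alternative run. The genes called higher and lower over the whole table moved from 41 and 14 to 234 and 74 with DESeq2, 324 and 113 with no filter beyond 1 count, 133 and 40 with at least 10 counts in every library, 87 and 24 with the legacy method off, 113 and 35 with halved counts, and to 35 lower with library size only. Without any 1 library they ranged from 77 to 923 higher and from 26 to 272 lower. With the replicate number as a replicate block they were 485 and 167, with 0 members called. The deviations of same-numbered libraries had a correlation of -8.96e-04 over all genes tested. This value cannot exclude a batch that same-numbered libraries share in part of the genes, so the pairing is not settled here.

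The pathway genes called, 0 as reported, were 1 with upper-quartile factors, 3 with library size only, 5 with no filter beyond 1 count, 3 with at least 10 counts in every library, 5 with DESeq2, 2 with the legacy method off, 1 with robust moderation, 6 with the replicate block, 3 with halved counts, and 1 to 9 without any 1 library. The largest of these, 9, was without siLOC730101 replicate 1. These counts are of 90 to 94 pathway genes tested, depending on the setting. In each of these settings more genes were also called over the whole table, both directions together, than as reported. Over all genes the share called was 0.284% as reported and 2.87% with DESeq2. The counts are therefore not read as a result about the pathway genes, and the cause was not tested.

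The median of the members, 0.031, was -5.76e-04 with upper-quartile factors, -0.0073 with library size only and -0.025 to 0.017 without any 1 library. The activator to repressor ratio, a log2 difference of -0.15, ranged from -0.23 to -0.052 without any 1 library. Directions turned for E2F3 with upper-quartile factors (-0.0067), with library size only (-0.014), without siControl replicate 2 (-0.020) and without siLOC730101 replicate 2 (-0.067), for E2F6 with library size only (-7.44e-04) and without siControl replicate 2 (-0.039), for E2F2 without siControl replicate 1 (-0.049) or siLOC730101 replicate 1 (-0.027), for TFDP1 without siControl replicate 1 (-0.049), and for TFDP2 without siControl replicate 1 (0.015) or siLOC730101 replicate 2 (0.018). Without any 1 library, the highest values were 0.19 for E2F2, 0.12 for E2F3, 0.12 for E2F6 and 0.16 for TFDP1, and the lowest for TFDP2 was -0.033. When a group is left with 1 library, that library is assumed to vary like the other group. E2F2, with 76 to 104 counts, is the member that depth limits most.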
